A study of Homo sapiens with 4 samples.

Results

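The mRNA levels of 10 genes of pre-mRNA splicing were followed in FaDu cells. The genes were 6 SR splicing factors (SRSF1, SRSF2, SRSF3, SRSF5, SRSF6 and SRSF7) and 4 CDC-like kinases (CLK1, CLK2, CLK3 and CLK4). They were taken by gene symbol from a table of 62077 rows, with the row required to lie on an assembled chromosome, and all 10 were found. A further row with a member's symbol lay on an alternate contig and was left out.

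FaDu is an established epithelial line from a hypopharyngeal squamous carcinoma. Cells carried either a scrambled control (scr) or a lentiviral short hairpin RNA against TET1 (TET1-si), an enzyme that oxidises 5-methylcytosine in DNA. They grew either in normoxia or under hypoxia (1% O2 for 19 h), with 5% CO2 in both. The 4 groups were N-scr (normoxia, scrambled), N-si (normoxia, TET1-si), H-scr (hypoxia, scrambled) and H-si (hypoxia, TET1-si), each with 1 RNA-Seq library from a single infected line. The study asked which genes responded to hypoxia and which of them depended on TET1. With no second library in any group there was no replicate error, no test between conditions was run, and every difference given here is one between single libraries.

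SR proteins bind short motifs in pre-mRNA through their RNA recognition domains and recruit the splicing machinery through a tail rich in arginine and serine. Phosphorylation of that tail decides where an SR protein resides and whether it is active. SRPK kinases load SR proteins into the nucleus and its speckles, while CLK kinases, which are nuclear, phosphorylate them further and release them from speckles. Transcripts of both families are themselves alternatively spliced, in part into forms that are retained in the nucleus or degraded. A gene-level value sums all such forms.

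The target of the hairpin listed for TET1 is shown because both TET1-si libraries rest on that knockdown. It lies in the last exon (exon 12) of the canonical TET1 transcript, past the coding part, at chr10:70451833-70451853 on the plus strand (hg19).
TET1 target: ccttgatagaatcactcagtt

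Promoters are shown for the kinases that differed most between libraries. Sequences came from RefSeq (GRCh38.p14), in which 9 of the 10 genes (all but SRSF2) were matched, and each was placed on hg19 by an exact match. Where a gene had more than 1 entry (3 genes), the one at the canonical start was used. The 250 bases before the start are printed, 5′ to 3′ in the sense of the gene. Capitals mark ACGTG and GCGTG, the core letters of the hypoxia response element, on either strand.
CLK1 (chr2:201729382-201729631, minus strand): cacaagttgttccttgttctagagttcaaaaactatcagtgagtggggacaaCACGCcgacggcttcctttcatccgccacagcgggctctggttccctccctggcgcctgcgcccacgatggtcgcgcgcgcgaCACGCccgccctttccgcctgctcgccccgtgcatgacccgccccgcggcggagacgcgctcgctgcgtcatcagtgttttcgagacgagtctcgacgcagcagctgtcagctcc
CLK3 (chr15:74907927-74908176, plus strand): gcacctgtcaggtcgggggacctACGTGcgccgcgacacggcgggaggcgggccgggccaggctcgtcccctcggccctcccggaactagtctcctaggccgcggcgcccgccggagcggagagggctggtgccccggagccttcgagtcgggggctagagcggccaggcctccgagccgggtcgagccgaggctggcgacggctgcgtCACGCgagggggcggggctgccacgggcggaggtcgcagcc
CLK4 (chr5:178054052-178054301, minus strand): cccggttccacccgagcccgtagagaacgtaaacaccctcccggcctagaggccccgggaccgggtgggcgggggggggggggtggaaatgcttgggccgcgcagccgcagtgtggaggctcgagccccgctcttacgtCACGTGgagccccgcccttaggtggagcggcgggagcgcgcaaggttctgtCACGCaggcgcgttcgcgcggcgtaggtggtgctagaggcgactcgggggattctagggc
CLK1 and CLK3 held 2 such matches each in these bases, and CLK4 held 3, of which a pair overlap as the palindrome CACGTG. Counted over the full 300 bases of an entry (50 past the start), ACGTG or GCGTG stood in 9 of 9 promoters, against 48.4% of all 35116 RefSeq promoters of that length. ACGTG alone stood in 6 of 9 against 21.4%, and GCGTG alone in 7 of 9 against 36.5%. Both motifs hold a CpG. The promoters of the SR factors and kinases had 23 to 41 CpGs (median 33), while the median of all promoters was 14. The 9 promoters with a match were those of SRSF1, SRSF3 and SRSF7, whose levels were lower under hypoxia, and of SRSF5, SRSF6 and the kinases, whose levels were higher. A link between the motifs and these levels was not tested.

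The label and the treatments were checked in the libraries. TET1 was listed at 0.129 FPKM (N-scr) and 0.0493 (N-si) in normoxia and 0.331 (H-scr) and 0.122 (H-si) in hypoxia, which rest on about 27, 11, 74 and 25 reads, and scr was 2.63-fold above si in normoxia and 2.71-fold in hypoxia. The hypoxia-induced genes CA9, NDRG1, EGLN3, ADM and VEGFA were higher in hypoxia by a factor between 1.67 and 43.4, with CA9 listed at 0 in N-si. The factor of 43.4 was that of CA9 in scrambled cells, from 0.180 FPKM (about 5 reads) to 7.82 FPKM. In H-si CA9 was at only 0.506 FPKM (about 15 reads). The 6 epithelial markers ranged from 42.1 to 3992 FPKM. Fibroblast markers summed to between 5.29 and 37.0 FPKM, nearly all COL1A1, with COL1A2 at 0. Leukocyte markers summed to between 1.44 and 3.47 FPKM with CD3E at 0. The endothelial markers VWF and CDH5 summed to between 8.91 and 48.4 FPKM, mostly CDH5. PECAM1, also planned as an endothelial marker, had no single row and was left out. The depth recovered from the FPKM steps was 22500000 to 24600000 reads per library.

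All 10 genes were well expressed. Between 967 and 22799 reads stood behind each value, so the counting error was small beside most of the differences below. FPKM is scaled to transcript length and can be compared between genes. SRSF5 was the most abundant of the 10 in every library (475.6 to 789.5 FPKM) and CLK4 the least abundant in N-scr, N-si and H-scr. The SR factors ranged from 76.3 to 789.5 FPKM and the kinases from 18.5 to 100.6 FPKM. The kinases spread more across libraries. The ratio of the highest to the lowest library was 3.62 for CLK1, 3.21 for CLK4 and 2.51 for CLK3, but 1.38 for CLK2, and among SR factors it lay between 1.31 (SRSF2) and 1.98 (SRSF7).

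**Figure D1:**
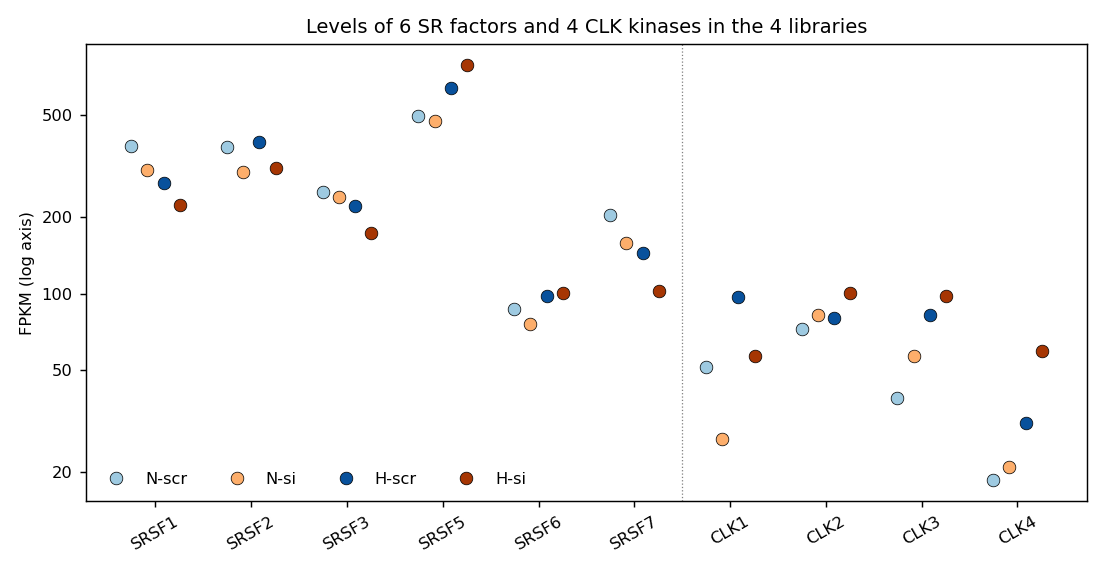
FPKM of each gene (log axis) in the 4 libraries, 1 point per library. The SR factors lie mostly above the kinases, CLK1 is lowest in N-si at 26.8 FPKM, and CLK4 is highest in H-si at 59.4 FPKM.

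Changes were computed as differences of log2(FPKM + 0.1), and a gene was called when it reached 1 on that scale, which is 2-fold. The share of all 15057 genes tested that were called is given as background. All coordinates are hg19. Ranges in parentheses after a change are 95% counting intervals of the log2 ratio. They rest on approximate reads and cover counting error only, not the spread between cultures. The contrasts share libraries, so a value in 1 library enters several of them.

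Under hypoxia in scrambled cells CLK1, CLK3 and CLK4 were higher, CLK2 was only slightly so, and the SR factors were divided. Of the 10 genes 1 rose at least 2-fold, CLK3, and 0 fell, against 12.9% of all genes called higher and 4.53% called lower. In TET1-si cells CLK1 and CLK4 rose at least 2-fold and 0 of the 10 fell, against 12.5% and 8.66% of all genes. A count of 1 or 2 in 10 is near that background. Under median-of-ratios scaling CLK3 in scrambled cells was at 0.96 and lost its call, as did CLK1 in TET1-si cells at 0.998, while rescaling to TPM put CLK1 in scrambled cells at 1.03. The 4 kinases had a median change of 0.83 in scrambled and 0.93 in TET1-si cells, beside 0.05 and 0.03 over all genes tested. The median of the 6 SR factors was -0.06 and -0.20, of which the first turned to 0.06 after rescaling to TPM.

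CLK1 (ENSG00000013441, chr2:201717732-201729422, minus strand) is the founding member of the kinase family and phosphorylates most SR proteins. Its level was 51.6 and 26.8 FPKM in normoxia (N-scr and N-si) and 97.0 and 57.2 FPKM in hypoxia (H-scr and H-si). The hypoxic library was the higher one in both knockdown states, but the level in H-si was only a little above that in N-scr. The hypoxia response was 0.91 (0.83 to 0.99) in scrambled and 1.09 (0.99 to 1.20) in TET1-si cells.

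CLK3 (ENSG00000179335, chr15:74890841-74932057, plus strand) is a kinase known for its abundance in testis. It was at 39.0 FPKM (N-scr) and 57.1 (N-si) in normoxia and 82.1 (H-scr) and 98.2 (H-si) in hypoxia. Both hypoxic libraries lay above both normoxic ones. The response was 1.07 (0.98 to 1.16) in scrambled and 0.78 (0.71 to 0.86) in TET1-si cells. EDC3, a decapping factor on the opposite strand, shares 701 bp of exon with CLK3 and was nearly level at 45.5, 49.6, 43.0 and 44.7 FPKM. A copy elsewhere in the genome covers 22.3% of the CLK3 transcript at 98% identity or more, so some CLK3 reads may not be unique. The other 9 genes had no such copy of at least 100 bp.

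CLK4 (ENSG00000113240, chr5:178029665-178057616, minus strand) is the closest relative of CLK1. It was at 18.5 and 20.9 FPKM in normoxia (N-scr and N-si) and 31.2 and 59.4 FPKM in hypoxia (H-scr and H-si). Both hypoxic libraries were above both normoxic ones, with H-si far above the other three. The response was 0.75 (0.64 to 0.87) in scrambled and 1.50 (1.41 to 1.61) in TET1-si cells, and of all genes tested 94.3% had a smaller response in TET1-si cells. A 7SK-like RNA that shares 161 bp with CLK4 was at 8.07 FPKM in H-si and between 1.08 and 2.55 FPKM elsewhere.

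CLK2 (ENSG00000176444, chr1:155232659-155248282, minus strand), a kinase also known from insulin signalling, had the smallest range of the kinases. Its levels were 72.9 FPKM (N-scr) and 82.8 (N-si) in normoxia and 79.9 (H-scr) and 100.6 (H-si) in hypoxia. The hypoxia response was 0.13 (0.07 to 0.20) in scrambled and 0.28 (0.22 to 0.34) in TET1-si cells. The value in scrambled cells was 0.09 relative to the median of all genes and 0.02 under median-of-ratios scaling.

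Among the SR factors, SRSF5 and SRSF6 had higher values in hypoxia, SRSF1, SRSF3 and SRSF7 had lower values, and SRSF2 was almost level. None reached 2-fold. SRSF5 promotes the use of weak exons and is known to respond to insulin. SRSF5 (ENSG00000100650, chr14:70193617-70238722, plus strand) was at 497.8 and 475.6 FPKM in normoxia (N-scr and N-si) and 641.9 and 789.5 FPKM in hypoxia (H-scr and H-si), with a response of 0.37 (0.34 to 0.40) in scrambled and 0.73 (0.70 to 0.76) in TET1-si cells. A relative of similar domain structure, SRSF6 (ENSG00000124193, chr20:42086568-42092245, plus strand), was at 87.3, 76.3, 98.1 and 100.6 FPKM in the same order, and its response was 0.17 (0.12 to 0.22) and 0.40 (0.35 to 0.45). For both genes the hypoxic libraries were above the normoxic ones.

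SRSF7 (ENSG00000115875, chr2:38970741-38978636, minus strand), an SR factor with a zinc knuckle that also acts in mRNA export, was at 202.6 FPKM (N-scr) and 158.3 (N-si) in normoxia and 144.5 (H-scr) and 102.4 (H-si) in hypoxia. SRSF1 (ENSG00000136450, chr17:56080854-56084707, minus strand), the prototype SR factor and an oncogene in several cancers, was at 380.9, 306.6, 270.6 and 223.2 FPKM in the same order. Both were lower in each hypoxic library than in either normoxic library. The response of SRSF7 was -0.49 (-0.53 to -0.44) in scrambled and -0.63 (-0.68 to -0.58) in TET1-si cells, and that of SRSF1 was -0.49 (-0.52 to -0.46) and -0.46 (-0.49 to -0.43). RP11-159D12.5, on the same strand, shares 1890 bp of exon with SRSF1 and was between 2.25 and 3.33 FPKM.

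SRSF3 (ENSG00000112081, chr6:36562145-36571209, plus strand), the smallest SR factor, was at 251.4 and 238.3 FPKM in normoxia (N-scr and N-si) and 220.6 and 172.2 FPKM in hypoxia (H-scr and H-si). H-si was lowest, and the response was -0.19 (-0.23 to -0.15) in scrambled and -0.47 (-0.51 to -0.43) in TET1-si cells. SRSF2 (ENSG00000161547, chr17:74730197-74733456, minus strand), which marks nuclear speckles, was at 374.6, 300.7, 393.5 and 312.2 FPKM. Its responses were 0.07 and 0.05, whose sign turned to -0.04 and -0.04 under median-of-ratios scaling. MFSD11 on the opposite strand shares 823 bp of exon with SRSF2 and was at 67.6, 81.3, 85.5 and 70.8 FPKM.

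**Figure D2:**
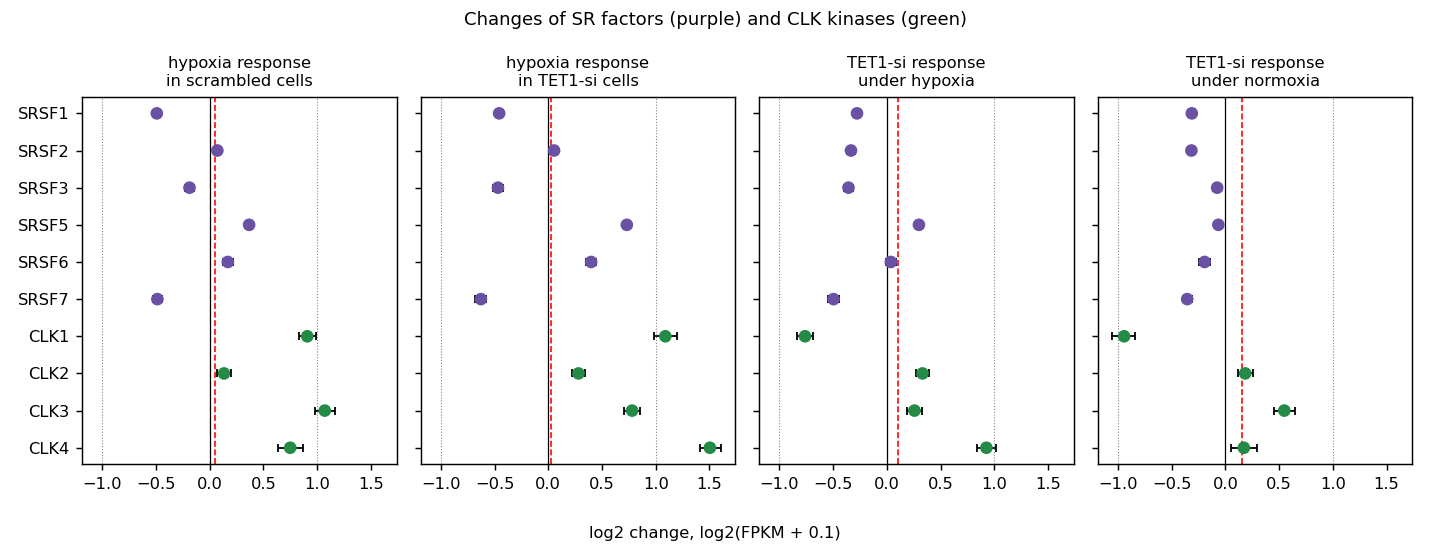
The log2 change of each gene (horizontal axis) in the 4 contrasts, with bars for the 95% counting interval, which is narrower than the symbol for most SR factors. The dotted lines mark 2-fold and the dashed red line the median of all genes tested; CLK3 in scrambled cells and CLK1 and CLK4 in TET1-si cells pass the 2-fold line on the right (purple, SR factors; green, kinases).

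In sign, 7 of the 10 genes were above 0 in both knockdown states (the 4 kinases, SRSF2, SRSF5 and SRSF6), against 40.8% of all genes, and 3 of 10 were below 0 in both, against 35.7%. All 4 kinases were among the 7, and 3 of the 6 SR factors. The counting interval lay above 0 for those 7 genes and below 0 for the 3 others in each knockdown state. Over all genes with reads it lay above 0 for 39.4% and below 0 for 35.8% in scrambled cells, and for 39.7% and 38.6% in TET1-si cells.

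After TET1 knockdown 0 of the 10 genes reached 2-fold in either direction, under hypoxia (background 12.0% higher and 8.35% lower) or under normoxia (12.1% and 5.56%). The nearest were CLK4 under hypoxia (0.93) and CLK1 under normoxia (-0.94). CLK1 was lower in each TET1-si library than in the scrambled library at the same oxygen level, with changes of -0.76 (-0.84 to -0.69) under hypoxia and -0.94 (-1.06 to -0.84) under normoxia, and of all genes tested only 6.1% had a lower value under normoxia. The median of all genes under normoxia was 0.15, and relative to it CLK1 was at -1.09. Scaling by median of ratios or by upper quartile, which take out that shift, put CLK1 past 2-fold lower under normoxia at -1.11 and -1.12.

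CLK4 went the other way under hypoxia, with a TET1-si response of 0.93 (0.84 to 1.01). Under normoxia its response was 0.17 (0.05 to 0.30), or 0.02 relative to the median of all genes, it was 0.00 under median-of-ratios scaling, and its sign turned to -0.0030 under upper-quartile scaling. CLK3 was higher in both TET1-si libraries, with 0.26 under hypoxia and 0.55 under normoxia. CLK2 was also higher in both, with 0.33 and 0.18. Its normoxia value was only 0.03 relative to the median of all genes, 0.02 under median-of-ratios scaling and 0.01 under upper-quartile scaling.

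Most SR factors had lower values after knockdown. The median of their TET1-si responses was -0.31 (hypoxia) and -0.25 (normoxia), beside 0.10 and 0.15 over all genes. SRSF7 gave -0.50 and -0.36, SRSF2 -0.33 and -0.32, SRSF1 -0.28 and -0.31, and SRSF3 -0.36 and -0.08. SRSF5 gave 0.30 under hypoxia and -0.07 under normoxia. SRSF6 gave 0.04 (-0.01 to 0.08) under hypoxia, a difference not detectable at this depth and negative under both scalings named above, and -0.19 under normoxia. In all, 5 of the 10 genes (SRSF1, SRSF2, SRSF3, SRSF7 and CLK1) were below 0 at both oxygen levels, against 28.7% of all genes, and 3 of 10 (CLK2, CLK3 and CLK4) were above 0 at both, against 46.2%. The counting interval lay above 0 for 4 of the 10 genes and below 0 for 5 under hypoxia, against 44.6% and 33.2% of all genes, and above 0 for 3 and below 0 for 7 under normoxia, against 47.7% and 27.7%.

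The TET1-si libraries also differed from the scrambled ones in markers of the cell type. KRT5, KRT8 and KRT18 were between 2.79 and 5.10-fold lower in TET1-si libraries, EPCAM and CDH1 were higher, and TP63 was nearly level (1.21 and 1.03-fold lower in normoxia and hypoxia). Of the markers of other cell types, CDH5 went from 8.75 to 21.7 FPKM in normoxia and from 16.0 to 45.5 FPKM in hypoxia. COL1A1 went from 5.29 to 14.0 and from 28.6 to 37.0 FPKM, VWF from 0.160 to 0.457 and from 1.79 to 2.94 FPKM, and CD14 from 1.44 to 3.43 and from 1.76 to 3.46 FPKM. COL1A2 and CD3E were at 0 in every library, and DCN, PDGFRB and PTPRC were at or near 0. In bulk RNA, fewer cells of a type and less RNA per cell cannot be told apart. The part of these marker differences in the values of the splicing genes was not tested.

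Genes near CLK1 also had lower values after knockdown. Of the 50 tested protein-coding genes nearest to CLK1, 25 on each side over 15.2 Mb of chromosome 2, 35 were below 0 under hypoxia with a median of -0.39, and 35 were below 0 under normoxia with a median of -0.54. Of all genes tested 42.9% were below 0 under hypoxia and 39.0% under normoxia. CLK1 itself lay below those medians. The neighbours of the other 9 genes had medians between -0.08 and 0.41 under hypoxia and between -0.14 and 0.47 under normoxia. SRSF2 and SRSF7 were lower after knockdown although the medians of their neighbours were 0.39 and 0.30 under hypoxia. For CLK4 under hypoxia the neighbours' median was 0.07, against its own 0.93. The hypoxia responses of the CLK1 neighbours had medians of -0.12 in scrambled and -0.13 in TET1-si cells, against 0.91 and 1.09 for CLK1. A regional difference between the scrambled and the TET1-si line and an effect of TET1 cannot be told apart with 1 line each.

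**Figure D3:**
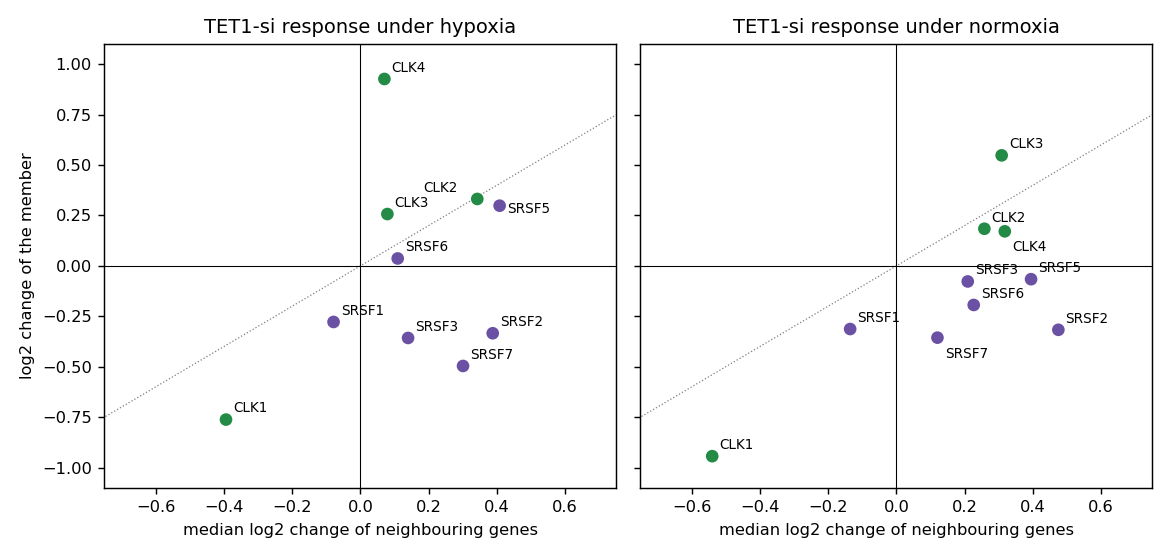
TET1-si response of each gene (vertical axis) against the median response of its 49 or 50 nearest tested protein-coding genes (horizontal axis), both as log2 changes, under hypoxia and under normoxia; purple marks SR factors, green the kinases, and the dotted line equal values. CLK1 is at the lower left in both panels, while CLK4 under hypoxia lies far above the line.

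The difference of hypoxia responses (TET1-si minus scrambled) reached 2-fold for 0 of the 10 genes, against 4.87% of all genes higher and 7.86% lower. Its value was 0.76 (0.61 to 0.91) for CLK4, 0.36 (0.32 to 0.41) for SRSF5 and 0.23 (0.16 to 0.30) for SRSF6. It was -0.29 (-0.41 to -0.18) for CLK3 and -0.28 (-0.34 to -0.22) for SRSF3. SRSF1 and SRSF2 had intervals that held 0. The median over all genes was -0.06.

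The make-up of each family differed between libraries. The summed FPKM of the 4 kinases was 182 (N-scr) and 188 (N-si) in normoxia and 290 (H-scr) and 315 (H-si) in hypoxia. The hypoxic sum was 1.59-fold the normoxic one in scrambled and 1.68-fold in TET1-si cells, while the TET1-si sum was 1.09-fold the scrambled one under hypoxia and 1.03-fold under normoxia. CLK1 made up 28.4% and 33.4% of the sum in N-scr and H-scr but 14.3% and 18.1% in N-si and H-si. CLK4 held between 10.2% and 11.1% in the first 3 libraries and 18.8% in H-si. The ratio of CLK1 to CLK4 was 2.79 and 1.29 in normoxia (N-scr and N-si) and 3.11 and 0.963 in hypoxia (H-scr and H-si).

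The sum over the 6 SR factors stayed between 1556 and 1795 FPKM. The SRSF5 share was 27.7% (N-scr) and 30.6% (N-si) in normoxia and 36.3% (H-scr) and 46.4% (H-si) in hypoxia. SRSF5 was 2.46 times as abundant as SRSF7 in N-scr, 4.44 times in H-scr and 7.71 times in H-si. SRSF1 and SRSF2 were equally abundant in normoxia, with ratios of 1.02 and 1.02, whereas under hypoxia the ratio was 0.688 in scrambled and 0.715 in TET1-si cells.

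**Figure D4:**
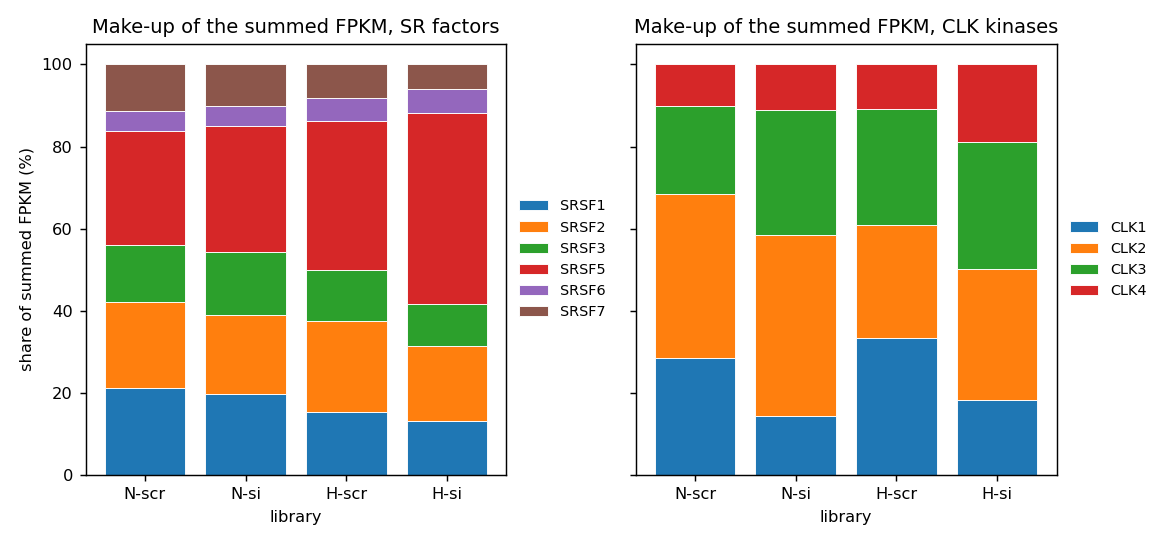
Share of each gene in the summed FPKM of its family (vertical axis, percent) in the 4 libraries. The SRSF5 share grows from 27.7% in N-scr to 46.4% in H-si, and the CLK1 share is smaller in both TET1-si libraries than in both scrambled ones.

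Patterns over the 4 libraries were compared by the root mean square distance of centred log2 values among 10785 genes with a mean of at least 5 FPKM. With 4 points per gene many genes lie close by, and no relation is drawn from it. SRSF7 and SRSF1 were 0.09 apart, the closest pair among the 10, and SRSF7 and CLK4 were farthest at 1.00. The genes nearest to CLK1 were AGPAT4, KRT17 and CTSD (0.04 to 0.06), those nearest to CLK4 were RALGDS, CLN3 and TNFSF10 (0.06), and those nearest to CLK3 were C7orf60, WDR45 and LCAT (0.03 to 0.05). Those nearest to SRSF5 were RP11-274B21.3, SERINC1 and RBM5 (0.01 to 0.03), and those nearest to SRSF7 were USP39, PSMC2 and NIPA2 (0.01 to 0.02). The nearest to SRSF1, SRSF2, SRSF3, SRSF6 and CLK2 were SPATA2, PKN2, PPP2R5C, SNX16 and ARHGAP1 (0.01 to 0.02).

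Other splicing genes were read from 5 lists in order to place the 10 genes. The 7 other SR factors tested had medians of -0.07 in scrambled and -0.23 in TET1-si cells under hypoxia, with 0 called in either, and the first was 0.05 after rescaling to TPM. SRSF11 had the largest hypoxia response in scrambled cells at 0.34, and SRSF8 the smallest at -0.42. A mixed list of SR protein kinases and cofactors, 11 tested, had medians of -0.21 and -0.21. Besides kinases it held the phosphatase subunits PPP1CA, PPP1CB, PPP1CC and PPP2CA, and TNPO3 and TOP1. Of the 11, 7 were below 0 in scrambled and 9 in TET1-si cells, against 46.4% and 47.8% of all genes. The 9 became 7 after rescaling to TPM. Its kinases were divided in scrambled cells, with SRPK1, SRPK2 (-0.16) and PRPF4B (-0.21) below 0 and DYRK1A (0.69) and DYRK1B (2.77) above. SRPK1, the main cytoplasmic SR protein kinase, was at 115.5 FPKM (N-scr) and 112.3 (N-si) in normoxia and 73.9 (H-scr) and 59.3 (H-si) in hypoxia, and its response was -0.64 and -0.92. In that list DYRK1B, a kinase related to the CLKs, rose at least 2-fold in both states, from 3.61 to 25.2 FPKM in scrambled and from 1.85 to 4.42 FPKM in TET1-si cells.

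Genes of the spliceosome core were mostly lower under hypoxia. Of 34 tested, 32 were below 0 in scrambled cells (median -0.39) and 31 in TET1-si cells (median -0.66), with 2 and 6 called lower and 0 called higher. Of all genes tested 46.4% and 47.8% were below 0, and 4.53% and 8.66% were called lower, so the 2 calls in scrambled cells are near the background. After rescaling to TPM 27 and 29 of the 34 were below 0. PRPF4, of the tri-snRNP, and SNRPE, an Sm protein, fell at least 2-fold in both states, with -1.09 and -1.38 for PRPF4 and -1.12 and -1.12 for SNRPE. SF3B1, the branch-site factor, had the largest value at 0.34. Of 22 hnRNP genes, whose products often oppose SR proteins at exons, 20 were below 0 in each state, with medians of -0.43 and -0.55 and with 0 and 1 called lower, which is not above the background just given. HNRNPC had the lowest response in scrambled cells at -0.90 and was the gene called in TET1-si cells at -1.03. HNRNPH1 had the highest response in scrambled cells at 0.19.

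The 30 SR-related and speckle genes had medians of -0.06 and -0.03. Of all genes tested 12.9% were called higher in scrambled and 12.5% in TET1-si cells, and 4.53% and 8.66% were called lower. Of the 30 genes, 0 were called in scrambled cells and 1 was called higher in TET1-si cells. That one was RSRP1, an arginine- and serine-rich protein, which was at 55.0 and 70.1 FPKM in normoxia (N-scr and N-si) and 109 and 163 FPKM in hypoxia (H-scr and H-si), with a response of 0.99 and 1.21. U2AF1, of the 3′ splice site, had the smallest response in scrambled cells at -0.46. After rescaling to TPM the medians of these genes were 0.06 and 0.11. SRSF12 and SRPK3 were below the expression filter and were not tested.

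The TET1-si response reached 2-fold in few genes of the lists. Under hypoxia DYRK1B was at -2.48 and the Sm protein SNRPF at -1.19. Under normoxia DYRK1A, a kinase of the DYRK family, was at 1.42, and RSRC1, an SR-related protein, was at 1.20. SNRPF, DYRK1A and RSRC1 were named after their values were seen. In the other SR factors and the hnRNP genes 0 were called at either oxygen level. Of all genes tested 12.0% were called higher and 8.35% lower under hypoxia, and 12.1% and 5.56% under normoxia.

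**Figure D5:**
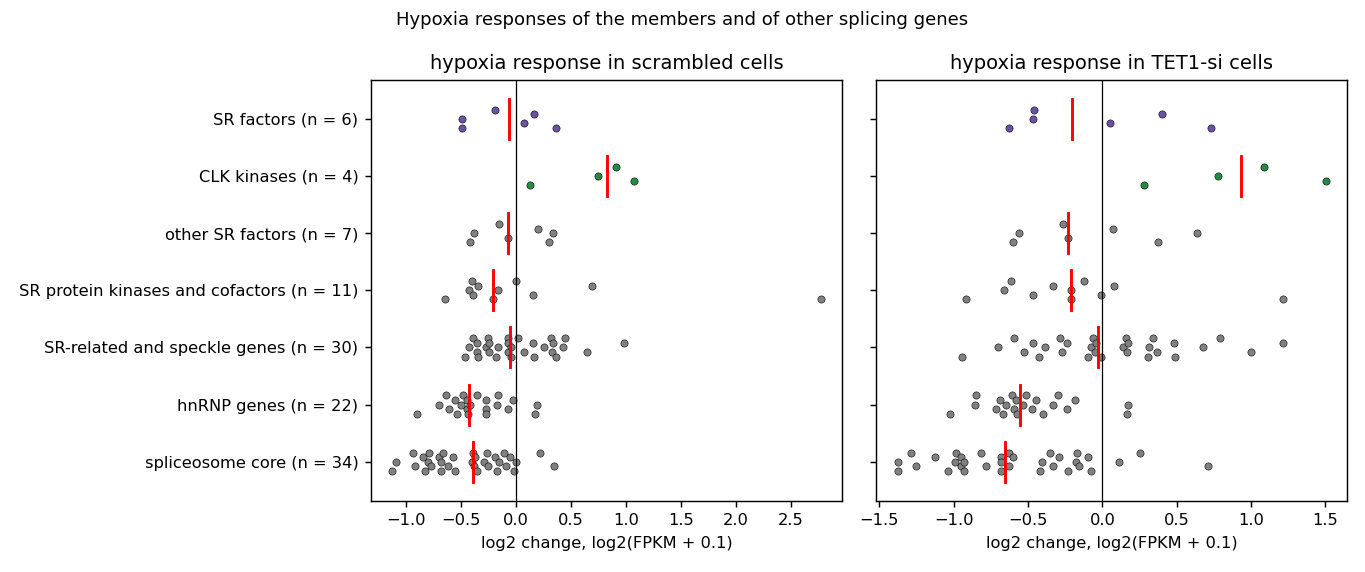
Hypoxia response of single genes (log2 change, horizontal axis) in 7 sets of splicing genes, with scrambled and TET1-si cells in separate panels, with 1 point per gene and a red line at each median. The CLK kinase points all lie right of 0, while most points of the hnRNP and spliceosome core sets lie left of it.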

How the data were processed

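Poly(A) libraries of 4 FaDu samples were sequenced with 100 bp reads, and the authors deposited 1 gene-level FPKM column per library, made with TopHat and Cufflinks on hg19 with Ensembl genes. Versions and filters are not given in the sources used here. The labels call the reads single end and the study's methods call them paired end. Strand was not stated, so genes that overlap on opposite strands can share reads.

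From the deposited FPKM, log2(FPKM + 0.1) differences were computed with Python 3.11.15, pandas 2.3.3 and numpy 2.4.6. A fold on this scale understates the change of a low gene. Counts over all genes took the 15057 genes with a mean of at least 1 FPKM and 1 row per gene ID. As FPKM hold no counts, a count test was not used. The depth per library was the value that made low FPKM of 7921 single-exon genes whole numbers of reads (97.0% to 97.6% whole within 0.05). On simulated data the depth was missed by at most 0.51%. Of 200 genes with a simulated 4-fold change between N-scr and H-scr, 196 were recovered among 15057 genes, with 0.135% of unchanged genes called. A 4-fold change lies well past the 2-fold rule, so this recovery says little of smaller changes. With 1 library per group no spread between cultures could be simulated, so 0.135% is not a false-call rate for these libraries. Approximate reads were FPKM times depth times canonical exon length (GENCODE v44lift37, within the deposited locus) less 212.5 bp, and they gave exact Clopper-Pearson 95% intervals (SciPy 1.17.1). For a difference of responses the interval was a normal approximation on the log scale from the reads of all 4 libraries. PCR reads are not independent molecules, so intervals cover counting error only.

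Starts in the table count from 0, and 1 was added. Copies elsewhere were searched with BLAST 2.17.0 (at least 98% identity). The 10 genes and the 5 lists were chosen with earlier results of these data known. All 10 genes are named, with, for each list, genes called the same way in both states and the largest and smallest hypoxia response in scrambled cells. The comparison with neighbouring genes was added after values were seen. Other pseudocounts, scalings and filters were tried.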

Additional observations from a re-analysis of the deposited data

Results flagged for a closer look

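SRSF5 and SRSF6 had TET1-si responses of opposite sign at the 2 oxygen levels. SRSF5 was at 0.298 under hypoxia and -0.066 under normoxia. SRSF6 was at 0.0368 under hypoxia, with a counting interval that held 0 (-0.0078 to 0.0814), and -0.194 under normoxia. Its hypoxia value turned to -0.108 under median-of-ratios and -0.0728 under upper-quartile scaling, so its opposite signs rest on the scaling. Each sign rests on 1 library per group, and the difference between oxygen levels was not tested.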

How the results depend on the processing

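Under 7 alternatives (a pseudocount of 1 or none, median-of-ratios scaling, upper-quartile scaling, rescaling to TPM, no filter, a mean of at least 5 FPKM), 5 of 70 counts of called genes moved. The filters leave a gene's own value as it is. Under median-of-ratios scaling hypoxia called 0 of the 10 genes higher in scrambled cells and 1 when TET1 was knocked down, and 1 gene was called lower by TET1-si under normoxia. Upper-quartile scaling also gave 1 lower there. TPM gave 2 called higher by hypoxia in scrambled cells. CLK3 under hypoxia in scrambled cells ranged down to 0.96 with median-of-ratios scaling, and CLK1 reached 1.03 with TPM. The median of all genes in that contrast was 0.16 with TPM against 0.05, and under normoxia the TET1-si median was 0.00 with median-of-ratios scaling against 0.15. The sign flipped under at least 1 alternative for 5 of 50 values, of SRSF2 (3), SRSF6 (1) and CLK4 (1), each 0.17 or less in size. For the other splicing lists the scalings were added after seeing the data. Their values stand in the report for hypoxia medians whose sign turned and for some counts. The hnRNP counts are not given under the scalings, and values close to 0 among them can turn. No paired analysis was run. Each group holds 1 library, numbered 1, so no library could be left out. An additive fit of oxygen and knockdown state, with the interaction as its error and 1 residual degree of freedom, was not run.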
